A study of Mus musculus with 36 samples.

Results

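Retinoic acid acts on nuclear receptors, transcription factors that change the activity of genes when a small lipid binds them. The 9 genes described here are the retinoic acid receptors Rara, Rarb and Rarg, the retinoid X receptors Rxra, Rxrb and Rxrg, the COUP-TF receptors Nr2f1 and Nr2f2, and Nr6a1, which is also called germ cell nuclear factor. They were taken by name from the 51912 mouse gene IDs of the count and abundance tables, and all 9 had enough counts to be tested. The choice was made with earlier results of these data known. Polyadenylated RNA was sequenced from mouse HM1 embryonic stem cells on their way from neuromesodermal progenitors to spinal motor neurons. There were 36 libraries, 3 at each of 12 time points, which were days 0, 0.5, 1, 1.5, 2, 2.5, 3, 3.5, 4, 5, 6 and 7.

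Before day 0 the cells of all groups had been grown in N2B27 medium with 10 ng/ml bFGF, a fibroblast growth factor. On the last of those days they also had 5 µM CHIR99021, an inhibitor of GSK3 that switches on Wnt signalling, 10 µM SB431542, an inhibitor of TGF-beta receptors, and 2 µM DMH1, an inhibitor of BMP receptors. Retinoic acid at 100 nM and SAG at 500 nM, an agonist of the Hedgehog pathway, were in the medium from day 0 on, and the medium was renewed every day. The day 0 libraries are labelled as controls and all later ones had both agents. With no untreated cells of the same age, retinoic acid, SAG and time in culture cannot be told apart. All libraries came from the HM1 line, feeder cells were removed before plating, and the titles number the 3 libraries of a time point as biological replicates without saying what was repeated. The p-values reflect the spread among libraries of a time point, and that spread may be technical if they did not come from separate cultures.

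A retinoic acid receptor pairs with a retinoid X receptor, and the pair sits on short DNA repeats near its target genes. Without ligand the pair holds corepressors there, and retinoic acid exchanges them for coactivators. In the embryo retinoic acid is made by the somites and contributes to the anterior to posterior identity and the ventral patterning of the spinal cord. Some receptor genes are themselves its targets. The COUP-TF receptors are orphan receptors that bind similar repeats and mostly repress, and Nr6a1 is an orphan receptor that represses Pou5f1 and other pluripotency genes as mouse embryonic stem cells differentiate.

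A search for such repeats is shown first, and whether a match has a part in any change of level was not tested. Promoter windows of 300 bases (250 before the start site and 50 after it) were taken from RefSeq on GRCm38.p6 and matched for 9 of 9 receptors. Both strands were searched for any pair of 4 hexamers in the same direction, each hexamer being AGGTCA or else AGTTCA or else GGTTCA or else GGGTCA, with 0, 1, 2 or 5 bases between them. Among the receptors only Rarb held such a pair, in its single window. The pair had a spacing of 5 bases and lay from -53 to -37 relative to the start site. The window lies at chr14:16575427-16575726 on the minus strand, inside the annotated span of the gene. The capitals mark the pair with its spacer.
Rarb: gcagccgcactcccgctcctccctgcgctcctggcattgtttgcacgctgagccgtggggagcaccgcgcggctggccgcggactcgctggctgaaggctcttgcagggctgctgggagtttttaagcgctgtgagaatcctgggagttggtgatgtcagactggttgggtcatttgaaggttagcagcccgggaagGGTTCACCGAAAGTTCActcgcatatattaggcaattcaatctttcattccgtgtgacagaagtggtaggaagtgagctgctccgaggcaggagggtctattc
The retinoic acid hydroxylase gene Cyp26a1, which breaks retinoic acid down, held the same kind of pair on the other strand, from -32 to -16, in the window chr19:37697558-37697857. A short stretch of that window is given for comparison, with the pair in capitals.
Cyp26a1: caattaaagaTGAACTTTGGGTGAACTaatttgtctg
Cyp26a1 was the only gene with such a pair among 10 retinoid synthesis, binding and breakdown genes with windows. The same held among 10 retinoic acid response genes, a list that also includes it. The other pathway lists described below had none. Such a pair with a spacing of 5 bases was found in 32 of 32851 windows, or 0.0974%. Spacings of 0, 1 and 2 bases were found in 0.213%, 0.222% and 0.268% of the windows and in none of those of the 9 receptors. A match describes the letters of a window and is not a measured binding site.

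Levels are given as TPM, transcript abundances that allow for gene length and add up to the same total in every library, as mean ± SD of 3 replicates. Fold changes are log2 ratios of counts, later day over earlier day, each with an approximate standard error (SE), and their scale can differ from that of TPM. A gene was called at an adjusted p under 0.05 in edgeR's quasi-likelihood test, with Benjamini-Hochberg adjustment over the 17990 genes tested. Library totals ran from 26567321 to 35757989 counts, and a receptor had between 8 and 28912 counts in a library. At day 0 the 7 markers of neural progenitors summed to 65.8 ± 2.18 TPM, against 911 ± 44.8 TPM for the 7 markers of caudal epiblast and 367 ± 15.5 TPM for the 6 of pluripotent cells, although the label calls these cells neural progenitors. At day 1 the neural progenitor markers summed to 872 ± 11.7 TPM. The libraries of days 1.5, 2.5 and 3.5 stood apart from those of the whole days around them in a large share of all genes, and the comparisons of neighbouring stages therefore use whole days apart from day 0.5. These are bulk libraries, in which fewer cells of a type and less RNA per cell cannot be told apart.

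The retinoic acid receptors changed places. Rarg was the most abundant of the 3 at day 0, and from day 1 on it was Rara, with Rarb rising from near 0 in between. Rara rose and Rarg fell from day 0 to day 0.5, to day 1 and to day 2, and Rarb rose 31.5-fold by day 0.5. At day 1.5 Rarg lay below day 2, at 10.4 ± 0.49 TPM against 12.2 ± 0.63 TPM. The 3 genes together had 130 ± 9.50 TPM at day 0, their lowest sum of 94.5 ± 2.27 TPM at day 0.5 and their highest of 138 ± 1.49 TPM at day 4.

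Rarb (ENSMUSG00000017491, chromosome 14, 16430839 to 16819156, minus strand, GRCm38) encodes the receptor beta, whose gene is itself a classic target of retinoic acid. Its level was 18.6, 18.6 and 20.7 TPM in the libraries of day 0.5, against 0.78, 0.52 and 0.50 TPM in those of day 0. Every library of day 0.5 lay far above every library of day 0. The log2 fold change was 4.98 ± 0.10 (adjusted p = 1.50e-28). The level was highest at day 1.5, with 48.4, 47.2 and 47.9 TPM. The libraries of day 3 had 23.1, 26.5 and 26.2 TPM, those of day 3.5 had 42.4, 45.5 and 43.8 TPM, and those of day 4 had 29.4, 29.1 and 30.6 TPM. The replicates of day 3.5 thus lay above those of both whole days beside it. From day 5 to day 7 the means stayed between 22.6 ± 1.24 and 26.5 ± 1.76 TPM. Ordered by level, day 1.5 stood above all others without overlap, then came days 3.5, 2 and 2.5, whose replicates overlapped in turn, days 1 and 4, days 5, 3 and 7, and day 6, with day 0.5 and day 0 each apart at the low end. Rarb shares 1793 of its 5265 exon bases with Top2b on the opposite strand, and whether counting used strand is not given. Top2b had between 6775 and 8959 counts in the day 0 libraries, where Rarb had 27 to 48.

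Rarg (ENSMUSG00000001288, chromosome 15, 102234938 to 102257517, minus strand) encodes the receptor gamma, the form of the early embryo and its tail end. Its level was 41.8, 42.0 and 38.6 TPM at day 0.5, against 104, 120 and 114 TPM at day 0. The groups did not overlap, and the log2 fold change was -1.44 ± 0.06 (adjusted p = 2.60e-19). It went on falling to 22.6 ± 1.89 TPM at day 1 and 12.2 ± 0.63 TPM at day 2. By day 5 it was lowest, at 4.53, 4.40 and 4.20 TPM. Day 7 stood at 6.04 ± 0.38 TPM, 24.4-fold lower than day 0 in counts (log2 -4.61 ± 0.08, adjusted p = 3.62e-32). Days 0, 0.5, 1, 2 and 1.5 followed each other in order of level with no overlap. Below them came days 2.5 and 3, then days 7, 4 and 3.5, then days 6 and 5, with neighbours overlapping inside each of these groups. Neighbours in that order did not overlap across groups, though day 4 (4.62 to 6.94 TPM) overlapped day 6 (4.21 to 4.80 TPM). Markers of the starting cells moved the same way. Of the caudal epiblast markers 7 of 7 were lower at day 7 than at day 0, with summed levels of 1.17 to 2.31 TPM against 860 to 945 TPM, and of the pluripotent markers 5 of 6 were lower, with 3.90 to 10.3 TPM against 357 to 385 TPM. Of all genes tested 41.2% were called lower in that comparison. None of these markers was at 0 in all 3 libraries of either day, and their part in the fall of Rarg was not tested.

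Rara (ENSMUSG00000037992, chromosome 11, 98927818 to 98974942, plus strand) encodes the receptor alpha, the most widely expressed form. It had 32.8, 32.8 and 37.9 TPM at day 0.5, against 15.5, 18.8 and 17.2 TPM at day 0, with no overlap (log2 1.05 ± 0.06, adjusted p = 5.76e-16). The level was 55.0 ± 4.29 TPM at day 1, 81.5 ± 3.81 TPM at day 2 and 94.5 ± 3.77 TPM at day 3, and stayed near 100 at days 4, 5 and 6, with 102 ± 3.37, 102 ± 6.44 and 97.4 ± 6.13 TPM. The replicates of days 4, 5, 6 and 3 overlapped as neighbours in the order of level, as did those of days 2, 7, 2.5 and 3.5 and those of days 1.5 and 1. Days 0.5 and 0 were each apart at the low end. At day 7 Rara had fallen to 79.5 ± 2.25 TPM, against 102 ± 3.37 TPM at day 4 (log2 -0.42 ± 0.06, adjusted p = 4.78e-08). The small rise of day 3 over day 2 (log2 0.14 ± 0.05, adjusted p = 0.0299) was no longer called without day 2 replicate 1 or 3 or without day 3 replicate 3, with adjusted p of 0.172, 0.142 and 0.168.

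**Figure D1:**
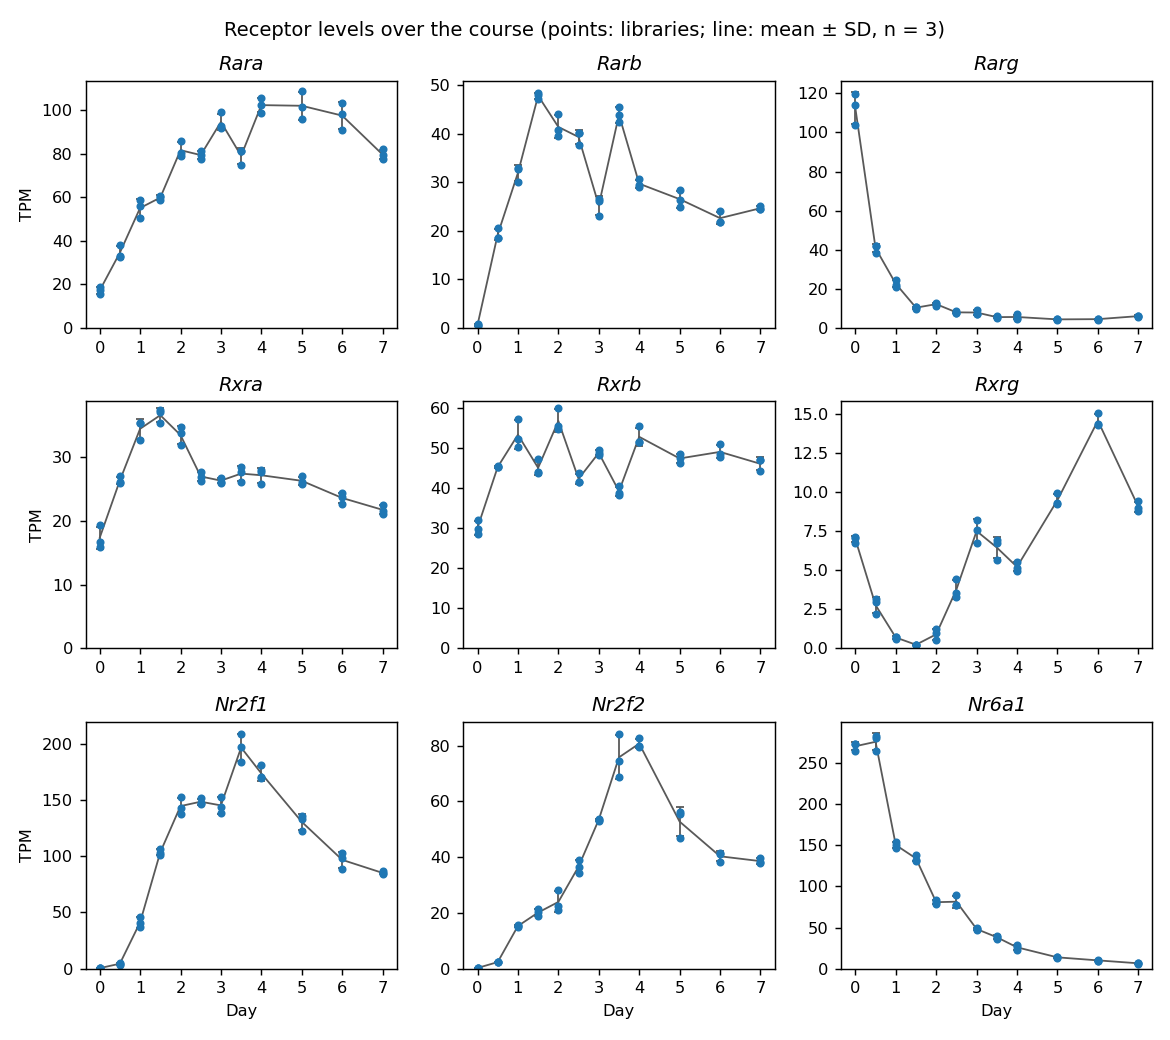
Level of each receptor in TPM over the 12 time points (day on the horizontal axis), with 1 point per library and a line through the means with SD, n = 3. Rarg starts near 112 TPM and Nr6a1 near 270 TPM and both sink, Nr2f1 and Nr2f2 climb to days 3.5 and 4, and Rxrg dips to 0.23 TPM at day 1.5 before its highest mean of 14.6 TPM at day 6.

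Within the summed TPM of the 3 retinoic acid receptors, Rarg took 86.4 ± 0.25% at day 0, 43.2 ± 3.03% at day 0.5 and 20.6 ± 0.58% at day 1, and it ended at 5.48 ± 0.30% at day 7. Rara took 13.1 ± 0.34% at day 0, 50.2 ± 1.82% at day 1 and 78.2 ± 0.61% at day 6. The share of Rarb was 0.468 ± 0.157% at day 0 and was highest at day 1.5, at 40.5 ± 0.20%. Around day 3.5 it was 19.8 ± 1.19% at day 3, 34.2 ± 1.34% at day 3.5 and 21.6 ± 0.79% at day 4. The change of leading receptor fell between day 0.5, when Rarg and Rara held 39.7% to 45.0% and 35.1% to 39.0%, and day 1, when Rara had 48.2% to 51.8% and Rarg 20.2% to 21.3%.

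**Figure D2:**
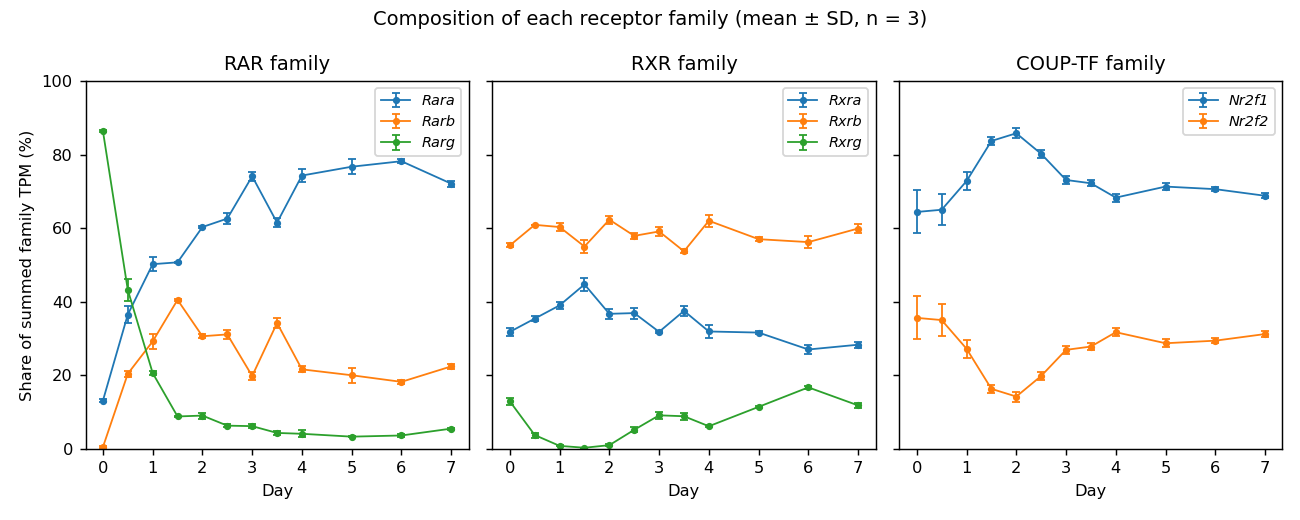
Share of each receptor in the summed TPM of its family, in percent, over the 12 time points (mean ± SD, n = 3), with retinoic acid receptors on the left, retinoid X receptors in the middle and COUP-TF receptors on the right. The Rarg share drops to 20.6% by day 1 while Rara reaches 50.2%, Rxrb stays between 53.7% and 62.3%, and the Nr2f1 share is highest at day 2 with 85.8%.

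The retinoid X receptors, the common partners, moved less, apart from Rxrg. Rxra and Rxrb rose about 1.5-fold in the first 12 hours, and their levels spanned 2.11-fold and 1.88-fold from the lowest to the highest time point. Rxrg fell to a few counts per library at day 1.5 and came back to 3.77 ± 0.59 TPM at day 2.5 and 7.52 ± 0.76 TPM at day 3. The summed level of the 3 genes was highest at day 2, with 91.0 ± 3.66 TPM, against 54.4 ± 3.58 TPM at day 0, the lowest.

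Rxrb (ENSMUSG00000039656, chromosome 17, 34031812 to 34038399, plus strand) was the most abundant of the 3 throughout. It had 45.1, 45.2 and 45.4 TPM at day 0.5, against 28.5, 29.7 and 32.1 TPM at day 0 (log2 0.60 ± 0.05, adjusted p = 4.01e-13). Its mean was highest at day 2, at 56.7 ± 2.86 TPM, and days 2, 1 and 4 overlapped as neighbours in order of level. Day 0 was lowest and stood apart. Its share of the family's TPM was highest at day 2, at 62.3 ± 1.06%, and lowest at day 3.5, at 53.7 ± 0.50%.

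Rxra (ENSMUSG00000015846, chromosome 2, 27676440 to 27762957, plus strand) had 25.9, 26.1 and 27.0 TPM at day 0.5, against 16.0, 16.7 and 19.3 TPM at day 0, with no overlap (log2 0.68 ± 0.05, adjusted p = 1.25e-14). The highest levels were those of days 1.5, 1 and 2, which overlapped in turn, with 36.5 ± 1.05, 34.4 ± 1.58 and 33.4 ± 1.43 TPM. The later level was lower. At day 3 it had fallen to 26.3 ± 0.42 TPM, against 33.4 ± 1.43 TPM at day 2 (log2 -0.42 ± 0.04, adjusted p = 5.85e-10). At day 7 it was 21.7 ± 0.71 TPM, against 17.3 ± 1.77 TPM at day 0, while the log2 fold change of counts was 0.03 ± 0.05 (adjusted p = 0.602, approximate 95% interval -0.06 to 0.12). The TPM scale itself moved the median of all genes up by 0.34 on the log2 scale in that comparison, and in log2(TPM + 1) Rxra stood at 0.31 (limma adjusted p = 2.51e-06), which is below that shift.

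Rxrg (ENSMUSG00000015843, chromosome 1, 167598384 to 167639623, plus strand) encodes the form with the narrowest expression, known in the nervous system and in muscle. It fell to 3.17, 2.94 and 2.22 TPM at day 0.5, against 7.16, 6.76 and 7.09 TPM at day 0 (log2 -1.37 ± 0.13, adjusted p = 4.50e-11). At day 1.5 it had 0.24, 0.22 and 0.24 TPM, from 8 or 9 counts per library. Every library of day 1.5 lay below every other library. At day 3 it had risen to 6.73, 8.25 and 7.57 TPM, against 0.96, 0.53 and 1.21 TPM at day 2, an 8.60-fold difference with no overlap (log2 3.10 ± 0.15, adjusted p = 6.81e-18). It was highest at day 6, with 14.4, 14.3 and 15.1 TPM, above all other time points. The dip and return leave day 7 close to day 0 in counts (log2 0.02 ± 0.11, adjusted p = 0.854, approximate 95% interval -0.20 to 0.25). In log2(TPM + 1) that difference was 0.33 (limma adjusted p = 0.00571), again below the shift of the scale. The share of Rxrg in the family went with this course, at 12.9 ± 0.88% on day 0, 0.285 ± 0.012% on day 1.5 and 16.7 ± 0.50% on day 6. Neuronal markers rose beside the return of Rxrg. All 7 pan-neuronal markers and all 7 motor neuron markers were higher at day 3 than at day 2, with summed levels of 2300 to 2422 TPM against 653 to 752 TPM and of 228 to 248 TPM against 118 to 129 TPM, and none was at 0 in all 3 libraries. At day 7 Rxrg was higher than at day 4 (log2 0.80 ± 0.12, adjusted p = 3.85e-07), whereas 7 of 7 motor neuron markers were lower, with 14.0 to 16.5 TPM against 172 to 191 TPM. Of the 7 pan-neuronal markers 2 were higher and 2 lower at day 7 than at day 4, with 2651 to 2809 TPM against 2725 to 2977 TPM. Markers of astroglia and floor plate were higher along with Rxrg in both of these steps, but rose while Rxrg fell between day 3 and day 4. Of 6 astroglial markers 4 were higher and 1 lower at day 3 than at day 2, with 637 to 702 TPM against 70.9 to 72.6 TPM, and 5 were higher and 0 lower at day 7 than at day 4, with 3409 to 3565 TPM against 1565 to 1864 TPM. Of 6 floor plate markers 5 were higher and 0 lower at day 3 than at day 2, with 573 to 623 TPM against 319 to 372 TPM, and 6 were higher at day 7 than at day 4, with 2339 to 2534 TPM against 1091 to 1225 TPM. At day 4 Rxrg was lower than at day 3 (log2 -0.71 ± 0.12, adjusted p = 1.51e-05). There 6 of 6 floor plate markers were higher, with 1091 to 1225 TPM against 573 to 623 TPM. Of the astroglial markers 3 were higher and 0 lower, with 1565 to 1864 TPM against 637 to 702 TPM. Of the motor neuron markers 1 was higher and 6 lower, and of the pan-neuronal markers 5 were higher and 1 lower. The floor plate sum was highest at day 6, like Rxrg, at 2867 ± 27.7 TPM. The part of any of these cells in the level of Rxrg was not tested. Of all genes, 27.5% were called higher and 25.1% lower at day 3 against day 2. At day 4 against day 3 these shares were 17.1% and 19.1%, and at day 7 against day 4 they were 33.5% and 32.9%.

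The COUP-TF receptors showed the widest range of all 9 genes. Nr2f1 and Nr2f2 were close to 0 at day 0 and rose at every step up to day 2, and Nr2f1 became more abundant than any retinoic acid or retinoid X receptor. Their summed level was 0.85 ± 0.32 TPM at day 0, 272 ± 20.1 TPM at day 3.5 and 124 ± 1.28 TPM at day 7.

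Nr2f1 (ENSMUSG00000069171, chromosome 13, 78188973 to 78199757, minus strand) encodes COUP-TFI, a regulator of regional identity in the developing brain. It had 3.76, 4.42 and 5.40 TPM at day 0.5, against 0.51, 0.83 and 0.33 TPM at day 0 (log2 3.16 ± 0.13, adjusted p = 2.30e-20). A further rise of 9.87-fold followed by day 1, with 45.9, 41.0 and 36.7 TPM, against those 3.76 to 5.40 TPM at day 0.5 (log2 3.30 ± 0.06, adjusted p = 1.88e-29). Each group stood clear of the one before it. Day 2 had 144 ± 7.45 TPM, and days 2.5, 3 and 2 overlapped as neighbours in order of level. The mean was highest at day 3.5, with 197, 208 and 184 TPM, and day 4 came next with 170, 169 and 181 TPM. At day 7 it had fallen to 85.1 ± 1.20 TPM, against 174 ± 6.57 TPM at day 4 (log2 -1.09 ± 0.04, adjusted p = 8.31e-22), and it was still 153-fold above day 0 in counts. Day 3 did not differ from day 2 by the test (log2 -0.09 ± 0.04, adjusted p = 0.0647), but it did without day 2 replicate 1 or 3 or without day 3 replicate 3, at -0.12, -0.12 and -0.11 (adjusted p = 0.0219, 0.0275 and 0.0483). The rise at day 4 over day 3 (log2 0.22 ± 0.04, adjusted p = 3.32e-05) was not called in log2(TPM + 0.1), where it was 0.26 (limma adjusted p = 0.184). The antisense gene A830082K12Rik shares 123 of the 5093 exon bases of Nr2f1 and had 21.1 ± 0.24 TPM at day 3.5, against 0.16 ± 0.08 TPM at day 0.

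Nr2f2 (ENSMUSG00000030551, chromosome 7, 70351944 to 70366735, minus strand) encodes COUP-TFII, known from veins, mesenchyme and subsets of neurons. It had 2.47, 2.27 and 2.46 TPM at day 0.5, against 0.26, 0.37 and 0.24 TPM at day 0 (log2 3.24 ± 0.24, adjusted p = 2.96e-13). Its highest levels were 75.8 ± 7.87 TPM on day 3.5 and 80.7 ± 1.65 TPM on day 4, which overlapped. At day 3 it had risen to 53.8, 53.1 and 53.4 TPM, against 21.2, 28.2 and 22.4 TPM at day 2, a difference of 2.14-fold with no overlap (log2 1.10 ± 0.07, adjusted p = 1.44e-14). Nr2f1 had no call in that comparison, and a difference between these genes was not tested. At day 7 Nr2f2 had fallen to 38.6 ± 1.00 TPM, against 80.7 ± 1.65 TPM at day 4 (log2 -1.20 ± 0.07, adjusted p = 1.51e-16). The share of Nr2f2 in the pair was 35.6 ± 5.85% at day 0, 14.2 ± 1.36% at day 2 and 31.7 ± 1.10% at day 4. B130024G19Rik on the opposite strand shares 643 of its 8625 exon bases and had at most 60 counts in a library.

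Markers of cell types in which Nr2f2 is known were also measured, along with those of neural crest. All 7 pan-neuronal markers were higher at day 3 than at day 2, as was Nr2f2. Their sums were 2300 to 2422 TPM against 653 to 752 TPM. At day 4 against day 3, 5 of them were higher and 1 lower, with 2725 to 2977 TPM at day 4. At day 7 against day 4, 2 were higher and 2 lower, with 2651 to 2809 TPM at day 7. Of 8 endothelial markers 6 were higher and 1 lower at day 7 than at day 0, with summed levels of 54.2 to 59.5 TPM against 9.12 to 9.47 TPM. Between day 3 and day 4, when Nr2f2 rose, 0 of these 8 were higher and 7 were lower, with 76.3 to 93.6 TPM at day 4 against 110 to 131 TPM at day 3. Between day 4 and day 7, when Nr2f2 fell, 1 endothelial marker was higher and 6 were lower, with 54.2 to 59.5 TPM at day 7 against 76.3 to 93.6 TPM at day 4. Of 9 mesenchyme and mesoderm markers 2 were higher and 3 lower at day 4 than at day 3, with summed levels of 110 to 126 TPM against 74.6 to 109 TPM. In the later step 6 of them were higher and 1 lower at day 7 than at day 4, with 692 to 781 TPM against 110 to 126 TPM. The 5 neural crest markers summed to 20.8 to 21.5 TPM at day 4 and 44.4 to 61.4 TPM at day 3. Of the 3 that were tested, 0 were higher, 1 was lower and 2 were not called at day 4 against day 3. No endothelial, mesenchyme or neural crest marker was at 0 in all 3 libraries of these days. The part of these cells in the level of either COUP-TF gene was not tested. Of all genes, 44.1% were called higher and 41.2% lower at day 7 against day 0. These shares were 27.5% and 25.1% at day 3 against day 2, 17.1% and 19.1% at day 4 against day 3, and 33.5% and 32.9% at day 7 against day 4.

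Nr6a1 (ENSMUSG00000063972, chromosome 2, 38723370 to 38927688, minus strand) was the most abundant of the 9 genes at day 0 and the least abundant but for Rarg by day 7. It showed no change in the first 12 hours. It had 281, 283 and 264 TPM at day 0.5, against 273, 273 and 265 TPM at day 0, and the groups overlapped (log2 -0.02 ± 0.04, adjusted p = 0.768, approximate 95% interval -0.10 to 0.06). Its mean TPM then fell at each later time point except day 2.5, which had 81.5 ± 7.18 TPM against 80.9 ± 2.58 TPM at day 2. By day 1 it had 147, 150 and 154 TPM, against the 264 to 283 TPM of day 0.5 (log2 -0.92 ± 0.04, adjusted p = 5.95e-19). At day 2 it was 80.9 ± 2.58 TPM, at day 3 it was 48.3 ± 1.34 TPM and at day 4 it was 26.1 ± 3.21 TPM. At day 7 it had 6.52, 7.31 and 6.19 TPM, 52.1-fold lower than day 0 in counts (log2 -5.70 ± 0.05, adjusted p = 4.61e-39). In order of level, days 0.5 and 0 overlapped, as did days 2.5 and 2, and the other 9 neighbouring pairs were separate. Pou5f1, which Nr6a1 represses in mouse embryonic stem cells, had 43.1 ± 0.38 TPM at day 0.5 and 275 ± 10.5 TPM at day 0. The markers of pluripotent cells and caudal epiblast were lower at day 7 than at day 0, as given above for Rarg. Unlike Nr6a1, they were already lower at day 0.5, in 5 of 6 and 7 of 7 cases, beside 26.7% of all genes. Their sums were then 74.2 ± 1.68 TPM against 367 ± 15.5 TPM, and 231 ± 28.4 TPM against 911 ± 44.8 TPM. The part of these cells in the fall of Nr6a1 was not tested.

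Each step of the course can be read against the share of all genes that passed the same test. All 9 receptors differed between time points, with adjusted p from 4.44e-18 for Rxrb to 1.09e-42 for Nr6a1, as did 96.1% of all genes tested. At day 0.5 against day 0, 8 of 9 were called, 6 higher (Rara, Rarb, Rxra, Rxrb, Nr2f1 and Nr2f2) and 2 lower (Rarg and Rxrg). Of all genes 54.3% were called there, 27.6% higher and 26.7% lower. When day 1 was set against day 0 instead, a choice made after the values were seen, all 9 were called, these 8 in the same directions and Nr6a1 at -0.93. At day 1 against day 0.5 all 9 were called, the same 6 higher and Rarg, Rxrg and Nr6a1 lower, beside 47.6% of all genes, 23.3% higher and 24.3% lower. At day 2 against day 1, 4 were higher (Rara, Rarb, Nr2f1 and Nr2f2) and 3 lower (Rarg, Rxra and Nr6a1), beside 54.3% of all genes, 27.4% higher and 26.9% lower. The fall of Rxra there (log2 -0.15 ± 0.04, adjusted p = 0.0042) was lost without day 1 replicate 2 or day 2 replicate 1 (adjusted p = 0.056 and 0.102) and in log2(TPM + 1) (-0.04, limma adjusted p = 0.561).

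At day 3 against day 2, 3 receptors were higher (Rara, Rxrg and Nr2f2) and 5 lower (Rarb, Rarg, Rxra, Rxrb and Nr6a1), beside 52.6% of all genes, 27.5% higher and 25.1% lower. Rarb was among those lower, at 25.3 ± 1.91 TPM on day 3 against 41.4 ± 2.37 TPM on day 2 (log2 -0.80 ± 0.06, adjusted p = 8.79e-14). At day 4 against day 3, 2 were higher (Nr2f1 and Nr2f2) and 3 lower (Rarg, Rxrg and Nr6a1), beside 36.2% of all genes, 17.1% higher and 19.1% lower. Rarb had no call there (log2 0.12 ± 0.06, adjusted p = 0.105), though its replicates did not overlap in TPM, and in log2(TPM + 1) it was higher by 0.23 (limma adjusted p = 0.00565). The TPM scale moved the median of all genes by 0.11 in that comparison. At day 7 against day 4, 1 was higher (Rxrg) and 7 were lower, all but Rarg, beside 66.3% of all genes, 33.5% higher and 32.9% lower. At day 7 against day 0, 5 were higher (Rara, Rarb, Rxrb, Nr2f1 and Nr2f2) and 2 lower (Rarg and Nr6a1), beside 85.3% of all genes, 44.1% higher and 41.2% lower. With so large a share of all genes called at each step, a call alone sets no receptor apart. The median log2 fold change of the 9 was 0.68 at day 0.5 against day 0, where that of all genes was 0.00, and -0.38 at day 7 against day 4, where that of all genes was -0.00.

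**Figure D3:**
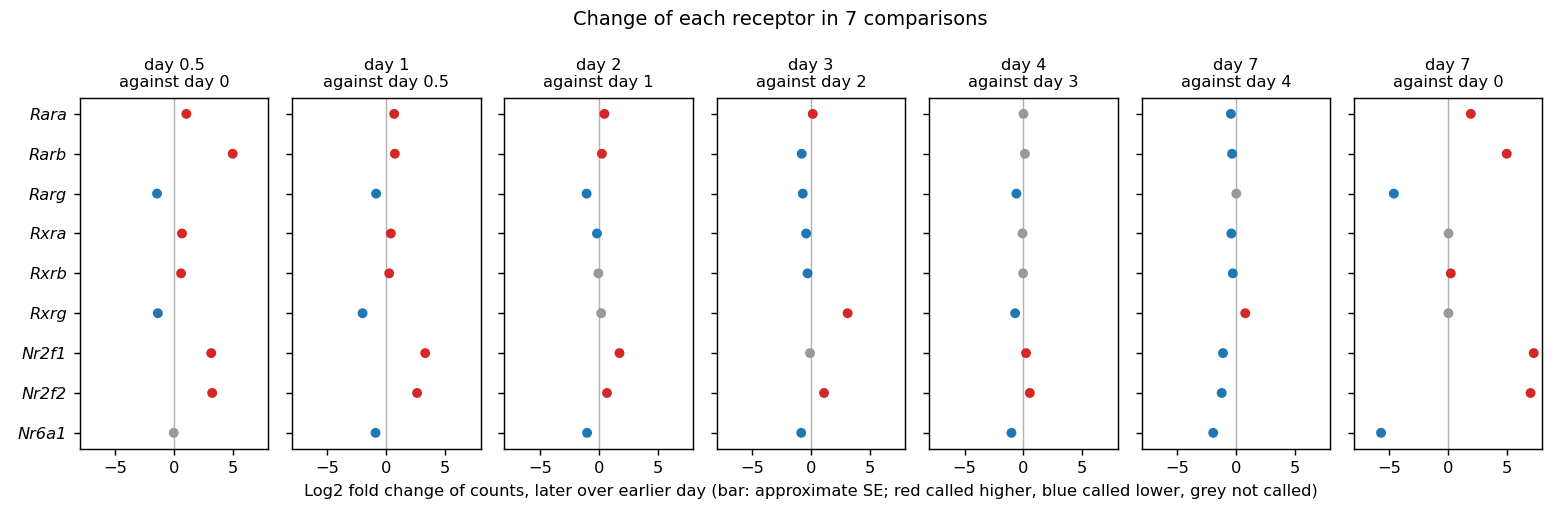
Log2 fold change of counts, later over earlier day, for each receptor in 7 comparisons, with bars for the approximate SE that are mostly hidden by the points. Red points were called higher, blue points lower and grey points not called, with Rarb, Nr2f1 and Nr2f2 at 4.98, 3.16 and 3.24 in the leftmost panel and Nr6a1 at -5.70 in the rightmost.

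Genes that make, carry and destroy retinoic acid changed with the receptors in the first 12 hours. Of 15 such genes 14 were tested, and 9 were higher and 1 lower at day 0.5 than at day 0, with a median log2 fold change of 1.23. The share of all genes called there was 54.3%, with 27.6% higher and 26.7% lower. Cyp26a1, which breaks retinoic acid down, rose to 9.18 ± 0.81 TPM at day 0.5, against 0.54 ± 0.10 TPM at day 0 (log2 4.07 ± 0.18, adjusted p = 1.32e-19). Aldh1a2, which makes retinoic acid from retinaldehyde, had 26.3 ± 2.65 TPM at day 0.5, against 2.48 ± 0.31 TPM at day 0 (log2 3.41 ± 0.13, adjusted p = 1.21e-21). Its rise did not last. At day 1 it had fallen to 4.48 ± 0.25 TPM and at day 2 to 1.27 ± 0.41 TPM, before 22.8 ± 1.51 TPM at day 3 and 38.3 ± 2.32 TPM at day 4. Cyp26b1, another hydroxylase, was higher at day 0.5 too (log2 3.12 ± 0.34, adjusted p = 1.33e-09). Crabp1, which binds retinoic acid in the cytoplasm, was 390 ± 51.7 TPM at day 1 against 96.7 ± 8.15 TPM at day 0.5 (log2 2.00 ± 0.07, adjusted p = 5.11e-22). Its relative Crabp2, which delivers retinoic acid to the receptors, was 35.8 ± 3.43 TPM at day 7 against 428 ± 14.8 TPM at day 4 (log2 -3.63 ± 0.07, adjusted p = 4.36e-30). By day 7, 11 of the 14 were higher and 3 lower than at day 0, beside 85.3% of all genes called. Among the higher ones were Dhrs3, a retinaldehyde reductase (log2 4.81 ± 0.12), and Cyp26b1 (log2 4.86 ± 0.27). Cyp26c1, the gene not tested, was at or near 0.

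Among 13 corepressors and coactivators, the proteins that the receptors hold without and with ligand, 8 were higher and 1 lower at day 0.5 than at day 0, with a median log2 fold change of 0.15. Of all genes 54.3% were called there. The changes of the 13 were small. The largest were those of Gps2, a subunit of the NCoR corepressor complex (54.0 ± 3.17 TPM at day 0.5 against 32.8 ± 2.49 TPM at day 0, log2 0.73 ± 0.05), Nrip1, a ligand-dependent corepressor (log2 0.73 ± 0.06), and the coactivator gene Ncoa2 (log2 0.37 ± 0.04). At day 3 against day 2, 2 were higher and 6 lower, beside 52.6% of all genes called. Among the lower ones was Tbl1x, another NCoR subunit (log2 -0.52 ± 0.03, adjusted p = 6.72e-15). At day 7 against day 4, 2 were higher and 9 lower, beside 66.3% of all genes called. At day 7 against day 0, 6 were higher and 3 lower, beside 85.3% of all genes called. At day 7 the coactivator gene Ncoa1 stood at 16.7 ± 1.53 TPM, against 3.65 ± 0.31 TPM at day 0 (log2 1.78 ± 0.06).

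Of 13 other receptors that share the retinoid X receptors as partners, 9 were tested. At day 7, 5 were higher and 3 lower than at day 0, beside 85.3% of all genes called. The gene of this list with the largest level was Thra, the thyroid hormone receptor alpha. Thra had 309 ± 5.50 TPM at day 7, against 26.7 ± 1.47 TPM at day 0 (log2 3.18 ± 0.04, adjusted p = 1.41e-35). It was 25.4 ± 1.58 TPM at day 2, 49.9 ± 1.56 TPM at day 3 and 79.6 ± 0.88 TPM at day 4, with the largest rise in TPM after day 4. At day 7 Thra was above the summed 76.8 ± 1.59 TPM of the 3 retinoid X receptors and the summed 110 ± 2.14 TPM of the 3 retinoic acid receptors, each taken per length in TPM. Nr4a1, an orphan receptor of the immediate early response, was lower at day 7, with 5.23 ± 0.52 TPM against 22.0 ± 0.18 TPM at day 0 (log2 -2.43 ± 0.09). Thra shares 263 of its 4614 exon bases with Nr1d1 on the opposite strand, which had at most 304 counts in a library. Of 7 other receptors of the NR2 group 3 were tested. At day 7 against day 4, 1 was higher and 2 were lower, beside 66.3% of all genes called. Nr2c2, the testicular receptor 4 gene, had 42.9 ± 1.26 TPM at day 7 against 31.0 ± 1.79 TPM at day 4 (log2 0.38 ± 0.04, adjusted p = 6.99e-11), and it shares 4590 of its 14935 exon bases with Mrps25 on the opposite strand, which had at most 1258 counts in a library. Nr2c1 was lower by -0.20 ± 0.06 (adjusted p = 0.00422), a call that was lost in log2(TPM + 1), at -0.10. Nr2f6, the third COUP-TF relative, was lower, with 31.1 ± 1.41 TPM against 59.0 ± 1.51 TPM (log2 -0.84 ± 0.09, adjusted p = 1.15e-09). Nr2f6 was 64.4 ± 7.06 TPM at day 0 already, when Nr2f1 and Nr2f2 had 0.56 ± 0.25 and 0.29 ± 0.07 TPM. It shares 1622 of its 2983 exon bases with Ocel1 on the opposite strand, which had at most 114 counts in a library.

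A list of 17 genes known to respond to retinoic acid, 5 of which (Cyp26a1, Dhrs3, Stra6 and Crabp2 among them) are also among the retinoid genes above, had 13 higher and 1 lower at day 0.5 than at day 0, with a median log2 fold change of 1.80. Pax6, a neural progenitor factor, and Meis1, a Hox cofactor, moved most, at 107 ± 6.13 TPM against 1.10 ± 0.10 TPM (log2 6.74 ± 0.10) and at 34.1 ± 3.01 TPM against 0.88 ± 0.16 TPM (log2 5.28 ± 0.08). The gene that fell was Cdx1, a caudal homeobox gene (log2 -1.34 ± 0.11). At this step 54.3% of all genes were called, 27.6% higher and 26.7% lower. At day 1 against day 0.5 the list split into 8 higher and 9 lower, beside 47.6% of all genes called. Cyp26a1 stood at -2.06 ± 0.14 and Stra6, the retinol transporter gene, at -1.88 ± 0.09. At day 7 against day 4, 3 were higher and 12 lower, with a median of -0.54, while 7 of the 9 receptors were lower as well. The share of all genes called there was 66.3%, with 33.5% higher and 32.9% lower. Day 0.5 also lies between whole days, and when day 1 was set against day 0 instead, Cyp26a1 was still higher, by 2.01, and Aldh1a2 by 0.85.

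The libraries of days 1.5, 2.5 and 3.5 were set against the mean of the whole days on either side, in a contrast chosen after the values were seen. Rarb stood 0.51 ± 0.03 higher on the log2 scale (adjusted p = 6.14e-15), and Nr6a1, Nr2f1 and Nr2f2 were higher by 0.32 ± 0.02, 0.31 ± 0.02 and 0.12 ± 0.04. Rxrb was lower, at -0.28 ± 0.02 (adjusted p = 3.22e-11), as were Rara at -0.13 ± 0.03, Rarg at -0.34 ± 0.05 and Rxrg at -0.35 ± 0.11, and Rxra was not called (0.05 ± 0.02, adjusted p = 0.0718). Thus 8 of the 9 were called, beside 53.3% of all genes, 27.9% higher and 25.4% lower. The calls of Rxrg and Nr2f2 were lost in log2(TPM + 1), at -0.08 and 0.10 (limma adjusted p = 0.263 and 0.0595). A curved course over the 3 days also gives a difference from the mean of its neighbours, so the days were read singly.

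Rxrb was below both neighbouring whole days at all 3 of these times, with 45.0 TPM at day 1.5 between 53.3 and 56.7 TPM, 42.3 TPM at day 2.5 between 56.7 and 48.7 TPM, and 39.2 TPM at day 3.5 between 48.7 and 52.8 TPM. Rarb was above both at days 1.5 and 3.5, and at day 2.5 its 39.3 TPM lay between 41.4 and 25.3 TPM. Retinoic acid breakdown genes stood out more. Cyp26a1 was above both neighbours at all 3 times, with 9.90, 8.93 and 10.6 TPM at days 1.5, 2.5 and 3.5 against 2.22, 4.10, 3.40 and 4.26 TPM at days 1, 2, 3 and 4 (log2 1.53 ± 0.07, adjusted p = 3.18e-17). Cyp26b1 had 12.8, 50.01 and 51.3 TPM against 1.90, 3.96, 6.43 and 6.73 TPM on those days (log2 2.88 ± 0.08, adjusted p = 5.86e-24). Dhrs3 was 1.05 ± 0.06 higher in the contrast. Its means were above both neighbours at days 1.5 and 2.5, while at day 3.5 it had 28.1 ± 1.84 TPM, against 8.07 ± 0.91 TPM at day 3 and 27.9 ± 1.77 TPM at day 4, and the replicates of days 3.5 and 4 overlapped. Over all genes tested, 12.3% were above both neighbours at all 3 times and 11% were below. The labels give no batch or hour of collection, and the cause was not tested.

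**Figure D4:**
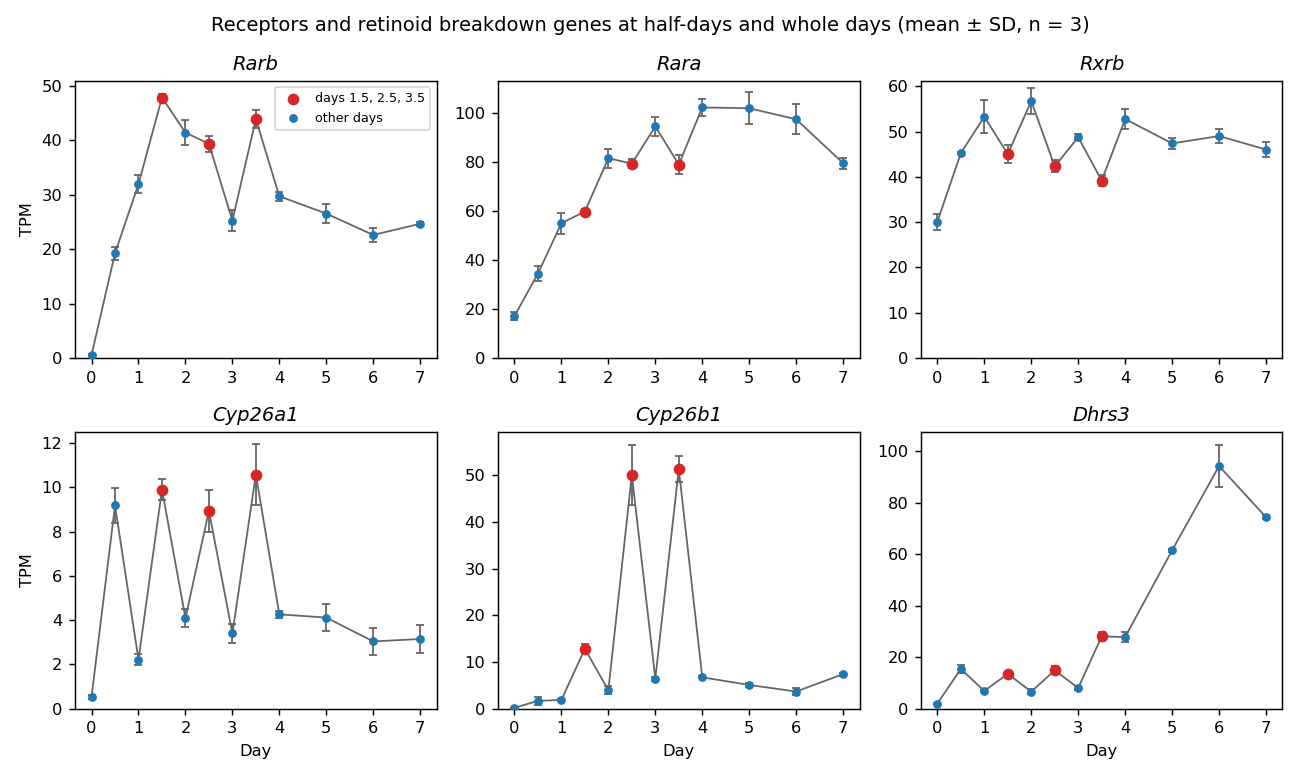
Mean TPM ± SD (n = 3) of Rarb, Rara, Rxrb, Cyp26a1, Cyp26b1 and Dhrs3 by day, with days 1.5, 2.5 and 3.5 in red and all other days in blue. The red points of Cyp26a1 lie between 8.93 and 10.6 TPM while those of the whole days beside them lie between 2.22 and 4.26 TPM, and the red points of Rxrb lie below the blue points on both sides.

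Finally, the genes whose course over the 36 libraries was most like that of each receptor were listed among 11213 genes, by Pearson r of log2 CPM (library-scaled counts, not per length). The libraries share 12 time points, so r describes a shared course and is given with no p. For Rarb the closest were Nkx6-1, a ventral spinal cord factor (r = 0.980), Hoxd3 (0.967) and Rnf165 (0.965), of which Hoxd3 shares exon sequence with Gm28230 and Hoxd4 on the same strand and is uncertain. For Rara they were Mir124-2hg, the host of a neuronal microRNA, Zfp358 and Nhlh1, a neuronal transcription factor (0.981 each). For Rarg they were Cd2ap, Grhl2 and Epcam (0.987 each), and Epcam is an epithelial adhesion molecule. For Rxra, Scrib, Kirrel and Ctdspl had 0.952, 0.948 and 0.946, and for Rxrb, Frem1, Nkx6-2 and Ift140 had 0.936, 0.913 and 0.899. For Rxrg, Gng3, the calcium channel gene Cacna1b and Xkr4 had 0.938, 0.935 and 0.934. For Nr2f1, Nedd9 and Sox2ot had 0.990 and 0.988, and for Nr2f2, Hp1bp3 and Fmn2 had 0.988 and 0.985. For Nr6a1, Epop, Utp20 and Aaas had 0.995, 0.993 and 0.992.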

How the data were processed

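Polyadenylated RNA of 36 libraries was analysed. RSEM and build GRCm38 are named in the submitters' processing notes, as is bcl2fastq 2.20.0, while an aligner, an annotation release or a strand setting is not given in the sources used here. The authors deposited expected counts per gene and sample, of which 6.87% were not whole, and these were rounded for testing. The authors also deposited TPM values, which allow for gene length, sum to between 999999.21 and 1000000.98 per library and served for levels and shares. Symbols and positions came from GENCODE M21 and matched 51633 of 51912 gene IDs, which hold 99.925% of the counts.

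All libraries entered one edgeR 4.0.16 quasi-likelihood fit (R 4.3.3) by time point, with TMM factors of 0.924 to 1.06, filterByExpr, 24 residual degrees of freedom and Benjamini-Hochberg adjustment over 17990 genes. The approximate standard error was obtained from the log2 fold change and its F statistic (size over root F). Totals of 26567321 to 35757989 counts set the precision, which is lowest for Rarb, Nr2f1 and Nr2f2 at day 0 and Rxrg at day 1.5. No replicate pair held identical values. Alternatives were DESeq2 1.42.0, median-of-ratios scaling, no filter, a replicate block, only the 6 libraries compared, each library left out, and limma 3.58.1 on log2(TPM + 1) and log2(TPM + 0.1). The code was tested on simulated data. Tables and figures were made with Python 3.11.15, pandas 2.3.3, numpy 2.4.6 and matplotlib 3.10.9.

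The receptors and gene lists were chosen with earlier results of these data known. Named were the 9 receptors, up to 3 genes per pathway list and comparison with the largest called change, and the 3 genes with the highest r for each receptor (tested genes with a time-point mean of at least 10 CPM, without predicted genes). Pou5f1, and values of listed genes in comparisons where that rule did not pick them, were added after their values were seen. Some genes that the rule picked are not reported here.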

Additional observations from a re-analysis of the deposited data

How the results depend on the processing

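The counts of receptors and of all genes called stayed within 1.5 times in 202 of 202 alternatives. Leaving out single libraries gave 8870 to 9272 genes called at day 0.5 against day 0, against 9765 with all of them, and 6 to 7 receptors at day 2 against day 1, against 7. Of 828 alternative fold changes of the receptors 810 kept their call, 8 lost it and 10 gained it. Among called fold changes 0 turned direction, while some that were not called changed sign, such as Rxrb at day 4 against day 3 (-0.03, with a range of -0.05 to 0.11) and Nr2f1 at day 3 against day 2 (-0.09, with a range of -0.12 to 0.01). The losses and gains are those given above for Rxra, Rara, Nr2f1, Rarb, Rxrg, Nr2f2 and Nr6a1. In log2(TPM + 0.1) Rxra and Rxrg at day 7 against day 0 stood at 0.33 and 0.37 (limma adjusted p = 2.22e-06 and 0.044), and Rarb at day 4 against day 3 at 0.24 (0.04). On the TPM scale 73.8% of all calls at day 4 against day 3 were higher, against 47.3% in counts, and 63.5% against 51.7% at day 7 against day 0. In CPM, which is not per length, 73 of 96 family shares moved beyond their SD, and the highest mean was at day 5 for Rara, day 1 for Rxrb and day 0 for Nr6a1. Without replicate 2 it was also at day 5 for Rara.

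With the replicate number as a block, 8, 9, 7, 8, 5, 8 and 7 receptors were called in the 7 comparisons, the same counts as without it. Deviations of libraries with the same number correlated between -0.08 and 0.07. In 10 of 21 checks, some of which used the same library, a library correlated best with the one of its own number. Values this weak show no clear pairing by number but cannot exclude one.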

Other observations

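Across the 36 libraries, which share 12 time points, the log2 CPM courses of the receptors fell close together or far apart in ways that crossed the families. Nr2f1 and Nr2f2 had r = 0.98 with each other, and Rara had r = 0.97 with each of them, above its r of 0.82 with Rarb. Rarg ran opposite to Rara (r = -0.91) and to Nr2f2 (r = -0.94) and alongside Nr6a1 (r = 0.86). Rxra and Rxrb had r = 0.82, and Rxrg ran opposite to both, at -0.90 and -0.72. Rara and Rxrg were unrelated by this measure (r = -0.02). These values describe the time course and carry no test.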
